A study of Saccharomyces cerevisiae with 4 samples.

Results

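The transcripts examined are those of 6 budding yeast genes known for their induction by stress, chosen by name from the 7127 features of the deposited count table. They are the small heat shock protein genes HSP12 (YFL014W), HSP26 (YBR072W) and HSP42 (YDR171W), the membrane heat shock protein gene HSP30 (YCR021C), the cytosolic catalase gene CTT1 (YGR088W) and the multistress gene DDR2 (YOL052C-A). All 6 passed the filter on low counts, which left 6420 features. RNA came from 4 libraries of BY4742, a haploid strain of mating type α with the genotype his3Δ1 leu2Δ0 lys2Δ0 ura3Δ0, grown exponentially in YPD, a rich glucose medium. The 2 TUDCA libraries came from cultures given 5 mM tauroursodeoxycholic acid, a bile acid joined to taurine that serves as a chemical chaperone, for 2 h, and the 2 Ctrl libraries from cultures without it. All means are over n = 2 and all errors are SDs unless another is named. Whether the replicates were grown as separate cultures is not in the labels, and p-values therefore reflect the spread among these libraries alone, which may be technical. Messenger RNA was sequenced in bulk, so fewer cells expressing a gene and less RNA per cell cannot be told apart.

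Yeast answers heat, oxidants, osmotic shock and nutrient loss with a shared set of genes. The transcription factors Msn2 and Msn4 bind the stress response element (STRE), whose core letters are AGGGG, and protein kinase A, active in cells with ample glucose, keeps both factors out of the nucleus. The heat shock factor Hsf1 binds arrays of inverted GAA blocks, the heat shock element, ahead of chaperone genes. HSP12 and HSP26 are known as genes held low during rapid growth on glucose and strongly expressed once glucose runs out.

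Stretches ahead of 4 of the genes are shown because they hold the letters of these elements. Sequence was read from the RefSeq R64 assembly, and the window searched was the 300 bases ahead of the start codon, of which the 220 bases farthest from it are printed. Bases run 5′ to 3′ on the strand of the gene, and capitals mark AGGGG on either strand (CCCCT when it lies on the other strand) or the heat shock element cores TTCNNGAA and GAANNTTC, each of which reads alike on both strands.
HSP12, chrVI:106956-107175, plus strand: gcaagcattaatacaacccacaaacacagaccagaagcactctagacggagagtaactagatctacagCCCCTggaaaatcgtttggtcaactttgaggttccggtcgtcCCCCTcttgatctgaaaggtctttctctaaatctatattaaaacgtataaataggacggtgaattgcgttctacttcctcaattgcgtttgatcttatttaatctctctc
HSP42, chrIV:806321-806540, plus strand: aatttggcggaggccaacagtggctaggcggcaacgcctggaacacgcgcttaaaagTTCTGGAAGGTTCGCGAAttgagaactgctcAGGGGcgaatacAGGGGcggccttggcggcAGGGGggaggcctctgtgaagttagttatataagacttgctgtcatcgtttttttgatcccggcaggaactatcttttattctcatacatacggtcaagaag
DDR2, chrXV:231836-232055, minus strand: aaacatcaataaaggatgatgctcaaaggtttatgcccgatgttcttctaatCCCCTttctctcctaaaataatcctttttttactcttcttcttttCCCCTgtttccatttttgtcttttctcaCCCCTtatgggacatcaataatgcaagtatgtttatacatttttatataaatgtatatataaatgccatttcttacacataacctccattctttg
CTT1, chrVII:654334-654553, plus strand: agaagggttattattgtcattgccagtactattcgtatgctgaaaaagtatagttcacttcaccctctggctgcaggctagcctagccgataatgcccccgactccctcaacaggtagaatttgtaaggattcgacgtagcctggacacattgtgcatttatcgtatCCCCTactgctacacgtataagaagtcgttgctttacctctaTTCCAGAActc

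Matches to AGGGG numbered 3 in the DDR2 window, 3 in that of HSP42, 2 in that of HSP12 and 1 in that of CTT1. HSP42 also held 2 copies of TTCNNGAA, joined by a GAANNTTC that overlaps both. CTT1 held 1 TTCNNGAA. The windows of HSP26 and HSP30 held none of the 3 motifs, which says only that these letters are not in the 300 bases. Among 5988 protein-coding genes, 22.2% of windows of the same length held at least 1 AGGGG, 3.46% at least 2 and 0.551% at least 3, while TTCNNGAA was in 13.1% and GAANNTTC in 11.5%. A match of letters is a description and not evidence of binding.

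Libraries held 74080860 to 97133389 assigned counts. Ctrl replicate 2 stood apart, with an SD of log2 ratios across genes of 0.28 to 0.33 against the other libraries and 0.17 to 0.19 among those. A list of 10 ribosomal protein genes summed to 20289 CPM (counts scaled to a common library total, by edgeR's TMM factors as all CPM values here) in that library and to between 13911 and 15040 CPM in the others. Each comparison below is therefore also given without it where it changed the direction or the call. The fit called 6 genes in all, and none of the 6 stress genes was among them.

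HSP12 and HSP26 were among the most abundant messages in every library, treated or not. Together the 6 genes took 1.12% of counts in Ctrl replicate 1 (95% Wilson interval 1.115% to 1.120%) and 1.01% in Ctrl replicate 2 (1.009% to 1.013%). In TUDCA they took 1.148% in replicate 1 (1.145% to 1.1502%) and 0.970% in replicate 2 (0.967% to 0.972%). These intervals cover counting error only. The higher value of each group was in replicate 1, and both Ctrl shares lay between the 2 TUDCA shares.

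Levels of different genes were compared per length, as CPM per kilobase of feature. HSP12 was at 15529 ± 935 CPM per kilobase in Ctrl and 14111 ± 400 in TUDCA, and ranked 5, 6, 4 and 5 among the 6420 features in Ctrl replicates 1 and 2 and TUDCA replicates 1 and 2. HSP26 followed at 5910 ± 906 and 5774 ± 1174 CPM per kilobase, with ranks of 14, 20, 13 and 19. DDR2 was at 2481 ± 146 and 2586 ± 286 CPM per kilobase, with ranks of 65, 81, 42 and 62. The next level belonged to HSP42, at 684 ± 200 and 766 ± 131 CPM per kilobase, with ranks of 275, 406, 263 and 323. HSP30 was at 309 ± 88.0 and 302 ± 78.6 CPM per kilobase (ranks of 533, 799, 546 and 774), and CTT1 at 190 ± 0.153 and 236 ± 17.0 (ranks of 983, 1007, 775 and 835). This order, which is per length, held in each library. The 2 genes at its lower end did not differ beyond their spread across TUDCA libraries, since CTT1 reached 248 CPM per kilobase in replicate 1 and HSP30 was at 246 in replicate 2.

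**Figure D1:**
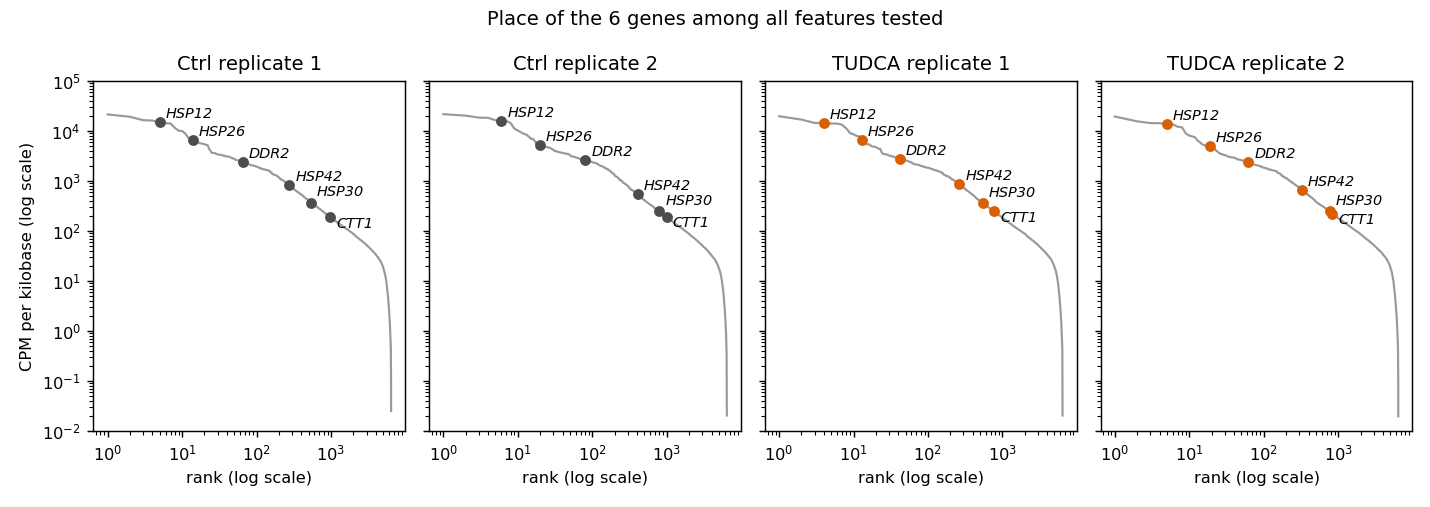
Abundance of all features tested, in CPM per kilobase against rank, both on log scales, with 1 panel per library. Points mark the 6 genes: HSP12 held rank 4 to 6 and HSP26 rank 13 to 20 in the 4 libraries, and CTT1 was the lowest of the 6 in each.

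The bile acid's effect on the transcriptome was the question of the study, and for these genes the fitted differences were small. Of the 6, the quasi-likelihood test of edgeR, adjusted by Benjamini-Hochberg across 6420 genes, called 0, where 0.0935% of all genes were called. DESeq2 also called 0 of the 6 and 0.919% of all genes, and limma-voom 0 of the 6 and 0.0935%. At an unadjusted p under 0.05 the count was 1 of 6, namely CTT1, against 8.32% of all genes. The fitted log2 fold changes ran from -0.14 to 0.31 with a median of 0.013, beside -0.0037 over all genes tested, and 3 lay above 0, as did 49.0% of all genes, and 3 below. Both TUDCA libraries lay above both Ctrl libraries for CTT1 (23.7% of all genes) and below both for HSP12 (23.9% of all genes), and for the other 4 genes the groups overlapped.

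**Figure D2:**
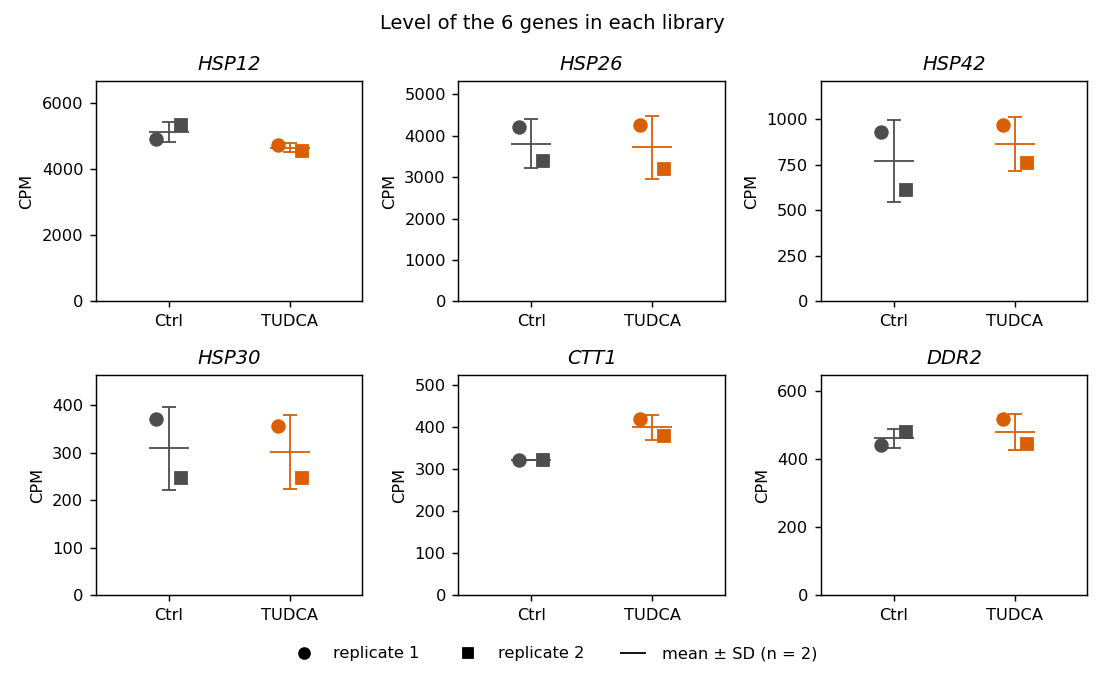
CPM of each gene in each library, from 0 on the vertical axis. Circles are replicate 1 and squares replicate 2, and bars are the mean ± SD of 2 libraries. CTT1 is between 378 and 418 CPM in TUDCA and at 321 in both Ctrl libraries, and HSP26, HSP42 and HSP30 have the higher value of each group in replicate 1.

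CTT1 encodes catalase T, the cytosolic enzyme that breaks down hydrogen peroxide. It lies on chromosome VII from 654634 to 656322 (plus strand, build R64). It was at 321 CPM in both Ctrl libraries, and at 418 and 378 CPM in TUDCA replicates 1 and 2. Every TUDCA library was thus above every Ctrl library, by 1.18-fold to 1.30-fold over the 4 pairings of libraries. The Ctrl SD of 0.259 CPM was 0.0805% of the mean, under the counting error of 0.649% that its smallest count of 23731 implies. The fitted log2 fold change was 0.31 (SE 0.092, 95% interval 0.096 to 0.52), or 1.24-fold, with an edgeR adjusted p of 0.544. Ordered by unadjusted p (0.0104 by edgeR) it stood at place 113 of 6420 genes. Ordered by signed fold change, from the largest rise down, it stood at place 277. The DESeq2 adjusted p was 0.105 and that of limma-voom 0.540. Leaving out TUDCA replicate 1 gave a log2 fold change of 0.23, and leaving out TUDCA replicate 2 gave 0.38. CTT1 passed in neither of those fits. Without Ctrl replicate 2 the log2 fold change was again 0.31 (edgeR adjusted p = 0.240, in a fit that called 0.667% of all genes). It passed without Ctrl replicate 1 (0.32, edgeR adjusted p = 0.0163), a fit that called 31.0% of all genes and takes its spread from the 2 TUDCA libraries alone.

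HSP12 encodes a small protein that associates with membranes and is unfolded in solution. Its gene lies on chromosome VI from 107256 to 107585 (plus strand). HSP12 was at 4906 and 5343 CPM in Ctrl replicates 1 and 2, and at 4750 and 4563 CPM in TUDCA. Both TUDCA values were below both Ctrl values, and the 2 Ctrl libraries differed 1.09-fold. The fitted level in TUDCA was 0.909-fold that of Ctrl, a log2 fold change of -0.14 (SE 0.12, 95% interval -0.41 to 0.13, edgeR adjusted p = 0.627). The interval allows a level in TUDCA from 0.755-fold to 1.09-fold that of Ctrl. Without Ctrl replicate 2 the value was -0.074.

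HSP26 and HSP42 encode the cytosolic small heat shock proteins, which bind unfolding proteins without ATP and hold them in assemblies from which Hsp104 and Hsp70 can recover them. HSP26 (chromosome II, 382030 to 382674, plus strand) was at 4225 and 3399 CPM in Ctrl replicates 1 and 2 and at 4259 and 3188 CPM in TUDCA. HSP42 (chromosome IV, 806621 to 807748, plus strand) was at 931 and 611 CPM in Ctrl and at 968 and 759 CPM in TUDCA. For both genes replicate 1 was the high library and replicate 2 the low library of each group, and the groups overlapped. The fitted log2 fold change of HSP26 was -0.034 (SE 0.17, 95% interval -0.43 to 0.36, edgeR adjusted p = 0.946). That of HSP42 was 0.16 (SE 0.20, 95% interval -0.30 to 0.63, edgeR adjusted p = 0.726). For HSP42 the ratio of a TUDCA to a Ctrl library ran from 0.816 to 1.58 over the 4 pairings.

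The call and sign of HSP42 depended on the library left out. Without Ctrl replicate 1 its log2 fold change was 0.51 (edgeR adjusted p = 0.00861), in the fit that called 31.0% of all genes. That fit has Ctrl replicate 2 as its lone Ctrl library, which is assumed to vary as the TUDCA pair does. The log2 fold change of HSP42 was -0.11 without Ctrl replicate 2 (edgeR adjusted p = 0.919) and -0.022 without TUDCA replicate 1. For HSP26 the 2 fits that left out a Ctrl library gave 0.14 (replicate 1 left out) and -0.18 (replicate 2 left out), and it passed in neither. HSP26 exceeded HSP42, per length, 7.94-fold and 9.72-fold in Ctrl replicates 1 and 2 and 7.70-fold and 7.34-fold in TUDCA replicates 1 and 2. HSP12 exceeded HSP26, also per length, 2.27-fold and 3.07-fold in Ctrl and 2.18-fold and 2.80-fold in TUDCA, with the higher ratio in replicate 2 of each group.

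HSP30 encodes a plasma membrane protein that restrains the proton pump Pma1 under stress, and its gene lies on chromosome III from 156109 to 157107 (minus strand). It was at 371 and 247 CPM in Ctrl replicates 1 and 2, and at 357 and 246 CPM in TUDCA. The 2 groups thus had nearly the same pair of values, with replicate 1 high in each. The log2 fold change was -0.036 (SE 0.22, 95% interval -0.54 to 0.47, edgeR adjusted p = 0.954), the widest interval of the 6 genes. Without Ctrl replicate 1 it was 0.30 (edgeR adjusted p = 0.150) and without Ctrl replicate 2 it was -0.30 (edgeR adjusted p = 0.669).

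Genes tied to the role of HSP30 gave no call. PMA1, the proton pump gene, averaged 4638 ± 63.1 CPM without TUDCA and 4667 ± 318 CPM with it (log2 fold change 0.0089, edgeR adjusted p = 0.980). Of 8 genes for the pump, its regulators and the relatives of HSP30, edgeR, DESeq2 and limma-voom each called 0. The shares of all genes called were 0.0935%, 0.919% and 0.0935%. At an unadjusted edgeR p under 0.05 there was 1 of the 8, against 8.32% of all genes. That gene was PMP2, which encodes a small proteolipid regulator of the pump. It had 391 and 404 CPM in Ctrl against 334 and 342 CPM in TUDCA, so that its log2 fold change was -0.24 (edgeR adjusted p = 0.544). Log2 fold changes were 0.056 for its paralog PMP1 and 0.22 for the pump-activating kinase gene PTK2. Without Ctrl replicate 2, PMP1 was at -0.028 and PTK2 at 0.087. The related kinase gene HRK1 had 0.033 and the second pump gene PMA2 had 0.10. The relatives of HSP30 had -0.043 for YRO2, at 1096 ± 52.0 and 1064 ± 31.9 CPM, and 0.10 for MRH1, at 1934 ± 24.2 and 2076 ± 51.1 CPM. The Ctrl libraries differed by -0.097 (replicate 2 minus replicate 1, log2) for YRO2 and 0.025 for MRH1, beside -0.59 for HSP30.

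DDR2 encodes a small protein induced by DNA damage and many other stresses, and its gene lies on chromosome XV from 231570 to 231755 (minus strand). DDR2 was at 442 and 481 CPM in Ctrl replicates 1 and 2 and at 519 and 443 CPM in TUDCA. The groups overlapped, with the highest value in TUDCA replicate 1 and the lowest in Ctrl replicate 1. Its log2 fold change was 0.060 (SE 0.11, 95% interval -0.20 to 0.31, edgeR adjusted p = 0.825), and -0.058 without TUDCA replicate 1. HOR7, the paralog of DDR2, was at 3469 and 3337 CPM in Ctrl and 3050 and 2599 CPM in TUDCA. Both TUDCA values of HOR7 were the lower, and its log2 fold change of -0.27 did not pass (95% interval -0.55 to 0.015, edgeR adjusted p = 0.544).

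Both replicate gaps were larger in size than the group difference for 4 of the genes, HSP26, HSP42, HSP30 and DDR2. Between the Ctrl libraries HSP42 differed by -0.61 and HSP30 by -0.59 on the log2 scale (replicate 2 minus replicate 1), gaps larger in size than those of 96.1% and 95.7% of genes tested. Between the TUDCA libraries HSP30 differed 1.45-fold, HSP26 1.34-fold and HSP42 1.27-fold, larger than for 98.3%, 96.8% and 95.6% of genes. DDR2 differed by 0.12 between the Ctrl and -0.23 between the TUDCA libraries, against 0.060 between the groups. The smallest of these counts, 21258 for HSP30, carries a counting error of 0.686%, against an SD of 28.4% of the mean in Ctrl. HSP12, CTT1 and DDR2 had Ctrl gaps of 1.09-fold, 1.00-fold and 1.09-fold. All 6 genes were lower in TUDCA replicate 2 than in TUDCA replicate 1, as were 49.3% of all genes tested. In Ctrl, 3 of the 6 were lower in replicate 2, as were 49.7% of all genes.

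**Figure D3:**
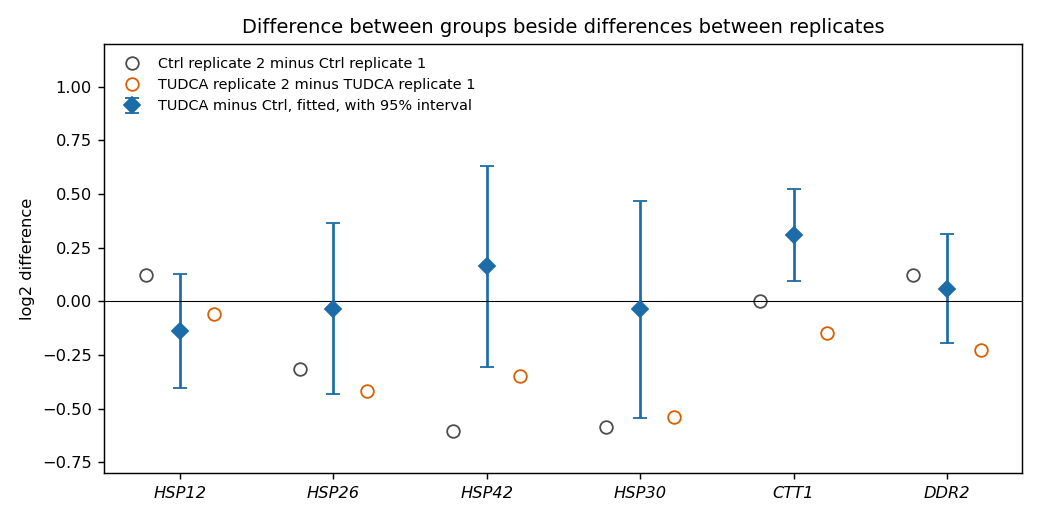
Log2 differences for each gene. Diamonds are the fitted difference of TUDCA minus Ctrl with its 95% interval, and open circles the difference of replicate 2 minus replicate 1 within Ctrl and within TUDCA. The interval lies above 0 for CTT1 alone, and for HSP26, HSP42, HSP30 and DDR2 both replicate differences are larger in size than the group difference. For the first 3 of these they run from -0.61 to -0.31.

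By root mean square difference of centred log2 CPM over the 4 libraries, HSP26 and HSP30 were 0.11 apart, HSP42 and HSP30 0.13 and HSP26 and HSP42 0.15. HSP12 lay 0.11 from DDR2 and 0.32 from HSP42, the widest distance of the 15 pairs. HSP12 and DDR2 varied by only 0.084 and 0.095 around their own means, so the 0.11 between them does not show a shared pattern. Of 5380 other genes at a mean of at least 10 CPM, those nearest to HSP26 were SOL4 (0.036), for an enzyme of the pentose phosphate pathway, and BAG7 (0.036). The nearest to HSP42 were YMR084W (0.054) and HSP78 (0.056), the mitochondrial relative of Hsp104. For HSP30 they were SPG1 (0.048) and CYC7 (0.066), which encodes an isoform of cytochrome c. CTT1 was nearest to YPL278C (0.019) and HAL1 (0.031), and DDR2 to SIP18 (0.0097) and MRX19 (0.028). HSP12, which varied by only 0.084 around its own mean, was nearest to PGD1 (0.0054), of which another feature covered 14.2%, and ZIM17 (0.0059), and a flat pattern finds near matches easily. These distances rest on 4 libraries and describe them only.

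Most of a list of 38 other general stress genes were lower in replicate 2 of each group. In TUDCA replicate 2, 38 of 38 were lower than in replicate 1 (49.3% of all genes), with a median difference of -0.21. In Ctrl replicate 2, 34 of 38 were lower (49.7% of all genes), with a median of -0.28. HSP104, the disaggregase gene, went from 3079 to 1808 CPM between Ctrl replicates 1 and 2, and from 3020 to 2571 CPM between the TUDCA replicates. The list summed to 25594 and 20548 CPM in Ctrl replicates 1 and 2 and to 26962 and 23176 CPM in TUDCA. Ribosomal protein genes went the other way, with a median of 0.45 between the Ctrl and 0.11 between the TUDCA replicates, and their part in the stress gene differences was not tested. Of the 38 windows ahead of these genes 31 held AGGGG, beside the 22.2% given above. The genes were listed by name as general stress genes, so this share describes the choice of list and tests nothing.

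Between the groups, edgeR called 0 of the 38 general stress genes (0.0935% of all genes). An unadjusted p under 0.05 was found for 2 (8.32% of all genes). DESeq2 and limma-voom also called 0 in this list and in each list below. The 2 genes were TMA10, which encodes a ribosome-associated protein, and HXK1, a hexokinase gene. TMA10 was at 137 and 143 CPM in Ctrl, and at 226 and 168 CPM in the TUDCA libraries (log2 fold change 0.49, 95% interval 0.18 to 0.80, edgeR adjusted p = 0.535). HXK1 had 1807 and 1463 CPM in Ctrl against 2448 and 1929 CPM in TUDCA, so that its log2 fold change was 0.42 (edgeR adjusted p = 0.544), and another feature covered 9.81% of it. Fitted values lay above 0 for 31 of 38 (49.0% of all genes) and below for 7. Their median was 0.096 beside -0.0037 over all genes. That median was -0.022 without Ctrl replicate 2 and 0.24 without Ctrl replicate 1. Of the other most abundant members, log2 fold changes were 0.19 for HSP104 (-0.14 without Ctrl replicate 2), 0.13 for the glucokinase gene GLK1 and -0.079 for the nicotinamidase gene PNC1. Without Ctrl replicate 2, GLK1 was at 0.018.

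A list of 23 genes under Hsf1, mostly for chaperones and their partners, shares HSP104 and HSP78 with the general stress list. These 23 genes had 0 calls by edgeR (0.0935% of all genes) and 0 at an unadjusted p under 0.05 (8.32%). Their median was 0.049, and -0.082 without Ctrl replicate 2. HCH1, a regulator of Hsp90, had the smallest p (log2 fold change -0.15, edgeR adjusted p = 0.548). The Hsp90 genes HSC82 and HSP82 had 0.12 and 0.094, and the Hsp70 gene SSA1, of which another feature covered 33.6%, had 0.014. Without Ctrl replicate 2 these 3 values changed sign, to -0.065, -0.19 and -0.056. In Ctrl replicate 2, 20 of the 23 were lower than in replicate 1 (49.7% of all genes), and in TUDCA replicate 2, 21 of 23 (49.3%). Regulators of the response did not pass either. The list held MSN2, MSN4, HSF1, genes of kinase and cAMP pathways, and others such as YAP1, SKN7, GIS1 and MSN5. Of its 19 genes edgeR called 0 (0.0935% of all genes), with 0 at an unadjusted p under 0.05 (8.32%) and a median of 0.082. Fitted values lay above 0 for 14 of 19 (49.0% of all genes) and below for 5. Both TUDCA libraries lay above both Ctrl libraries for 9 (23.7% of all genes) and below both for 1 (23.9%). The list median was 0.032 without Ctrl replicate 2. Log2 fold changes were -0.041 for BCY1, the regulatory subunit gene of protein kinase A, and 0.031 for the Ras gene RAS2. They were 0.12 for the adenylate cyclase gene CYR1 and 0.23 for the kinase gene YAK1, of which another feature covered 10.1%. Without Ctrl replicate 2, CYR1 was at 0.0059 and YAK1 at 0.022. These counts measure messages, and the activity of Msn2, Msn4 and Hsf1 is set largely at the protein level.

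Like CTT1 in the main fit, the other genes that remove peroxide gave no call. Of 10, edgeR called 0 (0.0935% of all genes). Fitted values lay above 0 for 2 (49.0% of all genes) and below for 8, with a median of -0.080. At an unadjusted p under 0.05 there was 1 of the 10, against 8.32% of all genes. That gene was TSA2, a stress-induced peroxiredoxin gene, with 53.7 and 55.5 CPM in Ctrl against 46.2 and 42.5 CPM in TUDCA, with a log2 fold change of -0.30 (edgeR adjusted p = 0.500). The peroxisomal catalase gene CTA1 had 22.2 and 26.7 CPM in Ctrl against 24.0 and 23.2 CPM in TUDCA, with a log2 fold change of -0.052 (edgeR adjusted p = 0.852). The peroxiredoxin genes TSA1, AHP1 and PRX1 had -0.19, 0.052 and 0.050, and the cytochrome c peroxidase gene CCP1 -0.024. Without Ctrl replicate 2, AHP1 was at -0.018, CTA1 at 0.091 and TSA1 at -0.052.

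**Figure D4:**
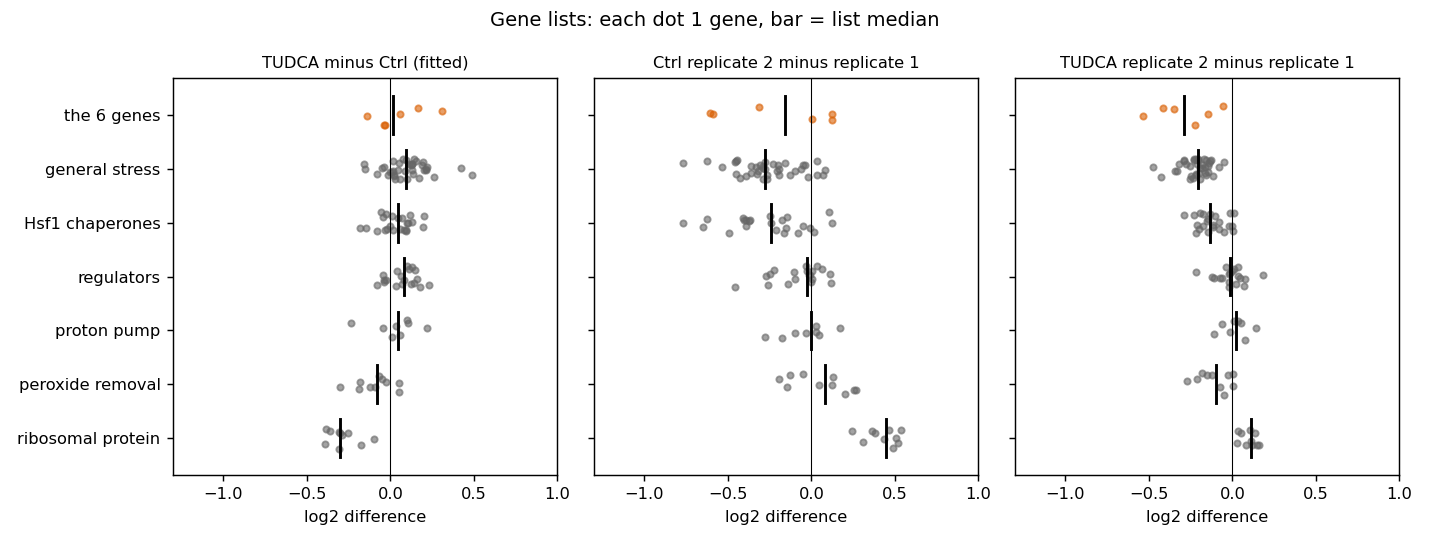
Log2 differences of single genes (dots) and list medians (bars) for the 6 genes and 6 lists. The left panel gives TUDCA minus Ctrl, and the others replicate 2 minus replicate 1 in Ctrl and in TUDCA. General stress genes centre on 0.096 between the groups, and on -0.28 and -0.21 between replicates, while ribosomal protein genes centre on -0.30, 0.45 and 0.11.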

How the data were processed

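The 4 libraries were stranded and poly(A)-selected, per the labels' protocols. The deposited count table holds unscaled counts for each feature. Per the submitters' processing notes, the authors used STAR 2.5.4b, build R64, featureCounts 1.6.0 and DESeq2 1.26.0. The deposited signal values are the same counts divided by 1 size factor per library, checked from the constant ratio of the files. Strand and multimapping settings are not given in the sources used here. No other feature overlapped any of the 6 genes, and every 50-base stretch of them occurred once in the genome. The multimapping setting thus does not bear on stretches of that length. The strand setting was not checked, since RNA outside the listed features would not show as an overlap.

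Differences were fitted in edgeR 4.0.16 under R 4.3.3 (filterByExpr at a minimum count of 10, TMM, quasi-likelihood F test, Benjamini-Hochberg adjustment at 0.05), with limma 3.58.1 and DESeq2 1.42.0 as alternatives, and the code was tested on simulated data. Fits ran on all 6420 features passing the filter, using all 4 libraries and no covariate. Feature ends lay within the reference's chromosome lengths, and 99.9% of 5989 protein-coding features began with ATG on it. Lists were summarised by counts and medians, with no set test. Protein sequences were not used here.

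The 6 genes and the lists were chosen with earlier results of these data known. The text names all 6, every gene of the lists around HSP30 and of paralogs, called genes, the smallest p and up to 4 of the most abundant genes of the other lists, and the 2 genes nearest each of the 6. The ribosomal protein list is given by its sums and medians. A result that the rule would name is not reported here.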

Additional observations from a re-analysis of the deposited data

How the results depend on the processing

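Of the 12 alternatives, 8 changed the scaling, filter, test or design and 4 left out a library. HSP12 stayed below 0 and CTT1 above 0 in all 12. With library totals, HSP26 (0.0085) and HSP30 (0.0047) were above 0. With a replicate block, 1 of the 6 was called, CTT1 (log2 fold change 0.31, edgeR adjusted p = 0.0351), where 191 genes were called higher and 162 lower. Deviations of the libraries numbered 1 from their group means correlated at 0.183 over 6420 genes, and with 2 numbers this does not show that the libraries were paired. No other call among the 6 changed with the block. Calls over all genes were 2 higher and 4 lower, 30 and 29 by DESeq2, and 1 higher with upper-quartile factors.

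Leaving out a library gave 2 to 1139 genes called higher, 5 to 871 lower and 0 to 2 of the 6, the 2 being HSP42 and CTT1 without Ctrl replicate 1. Log2 fold changes then ran from -0.26 to 0.16 for HSP26 (0.14 without Ctrl replicate 1 and 0.16 without TUDCA replicate 2), from -0.11 to 0.51 for HSP42 (-0.022 without TUDCA replicate 1), from -0.33 to 0.30 for HSP30 (0.21 without TUDCA replicate 2), from 0.23 to 0.38 for CTT1, from -0.19 to -0.074 for HSP12 and from -0.058 to 0.17 for DDR2. List medians ran from -0.022 to 0.24 for general stress, -0.082 to 0.15 for the list under Hsf1 and 0.032 to 0.13 for regulators. They ran from 0.021 to 0.068 for proton pump, -0.17 to -0.050 for peroxide removal and -0.076 to 0.00091 for paralog genes. For ribosomal protein genes they ran from -0.49 to -0.051. With upper-quartile factors and library totals, medians were 0.037 and 0.13 for regulators, 0.0010 and 0.087 for proton pump and -0.092 and -0.0034 for paralog genes. Over all genes the medians under these settings were -0.048 and 0.040, beside -0.0037 in the main fit. The cause of these changes was not tested.

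Ranked by CPM without length, mean ranks were 10 for HSP12, 15.5 for HSP26, 197.5 for HSP42 and 382.5 for DDR2. They were 533 for CTT1 and 663.5 for HSP30. Per kilobase the 6 genes, in the same sequence, were at 5.0, 16.5, 316.8, 62.5, 900 and 663. By mean CPM rank HSP42 thus came before DDR2, and CTT1 before HSP30, the reverse of their order per kilobase. Counts were high for all 6 genes, and the number of libraries limits the precision.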
